A study of Mus musculus with 14 samples.

Results

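The ribosome pull-down of the EYFP control mice was compared with the tissue it was taken from. The comparison used 6 of the series' 14 libraries, chosen by their labels: the immunoprecipitate (IP) and the total homogenate taken before it (pre-IP) of animals H, I and K, paired by animal letter. The study asked how mutant human tau changes the RNA on ribosomes of noradrenergic neurons in the mouse brainstem. Its other 8 libraries are the IP and pre-IP of animals B, C, L and M.

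All 7 mice had the genotype TH-Cre;Slc6a2-eGFP/Rpl10a. Cre recombinase was thus tied to the tyrosine hydroxylase gene, and a fusion of ribosomal protein L10a with enhanced green fluorescent protein to Slc6a2, the gene of the noradrenaline transporter. At 2 to 3 months of age, H, I and K received an infusion of EYFP (enhanced yellow fluorescent protein) aimed at the locus coeruleus, and the tau animals received human tau with the P364S substitution there. H and K were labelled female and I male. The pull-down antibody is not given in the sources used here. The labels name separate animals, so p-values measure the spread between animals, but an IP and a pre-IP of the same letter share theirs.

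The locus coeruleus is a small pontine nucleus whose neurons make most of the noradrenaline of the forebrain. Tyrosine hydroxylase and dopamine beta-hydroxylase synthesise it, the vesicular monoamine transporter packs it, and the noradrenaline transporter takes it back up. In translating ribosome affinity purification, a tagged ribosomal protein made in a chosen cell type is pulled down with the messenger RNA on its ribosomes, and RNA of other cells remains as background. The pre-IP holds the RNA of all cells of the dissected tissue.

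The 6 libraries held between 41843489 and 65664551 counted reads, and 3 counts in a library correspond to between 0.0457 and 0.0717 counts per 1000000 counted reads (CPM). The reads carried no molecular identifiers, so counting limits cover counting error only. The IP of animal I came from RNA with an integrity number of 4.2, against 7.7 to 9 in the other 5 libraries. The 3 IP samples had 0.7 to 2.8 ng/µL of RNA and the 3 pre-IP samples 13.9 to 21.1 ng/µL. Reads of the human tau construct, which EYFP animals should lack, numbered 408 in the pre-IP and 398 in the IP of animal K, against 2 to 18 in the other 4 EYFP libraries and 3527 to 47177 in the tau libraries. Where leaving out an animal ends a call or clearly moves the count of a gene list described below, the value without it is given for the gene or its list. Counts of RNA classes and of families that share a symbol stem are given for all 3 animals together. Every gene of the noradrenergic, neuronal and glial lists had counts in the EYFP pre-IP.

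The pull-down changed the levels of many genes in the EYFP animals. Of 19105 genes tested with edgeR's quasi-likelihood test with the animal as a block, 1699 (8.89%) were higher and 1528 (8%) lower in the IP at an adjusted p under 0.05. Most changes were modest: the median log2 fold change was 0.84 among the genes that rose and −0.65 among those that fell. A rise of more than 1 on the log2 scale was called for 605 genes, and a fall of more than 1 for 123. The levels of the 3 IP libraries did not overlap those of the 3 pre-IP libraries in 5380 of the tested genes (28.2%), of which 2735 were also called. The per-animal log2 ratios correlated across the 19105 genes with Pearson's r of 0.34 for H and I, 0.38 for H and K and 0.36 for I and K. These are correlations across genes, which are not independent replicates.

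Pairing by animal raised the number of calls. Without the block, 757 genes were higher (3.96%) and 461 lower (2.41%), and these 1218 genes were all among the paired calls with the same sign. With the spread estimated over all 14 libraries, 1359 of the paired calls held. Leaving out animal I gave 2126 calls.

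The noradrenergic genes were moderately higher in the EYFP pull-down. Of the 12 genes on the noradrenergic list, all tested, 8 rose and 0 fell, beside 8.89% and 8% of all genes tested, and the list's median log2 fold change was 0.77 against −0.01 over all genes. The medians by animal were 0.62 in H, 0.75 in I and 0.78 in K. The summed level of the list ran from 388 to 507 CPM in the pre-IP and from 556 to 651 CPM in the IP. In bulk RNA, a different share of noradrenergic cells and a different amount of RNA per cell cannot be told apart.

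Th (ENSMUSG00000000214.11, GRCm38 chr7:142892752-142931128), the gene of tyrosine hydroxylase, was at 50.5, 65.1 and 67.4 CPM in the pre-IP of H, I and K and at 108, 114 and 105 CPM in the IP. All 3 IP libraries lay above all 3 pre-IP libraries, by a log2 fold change of 0.84 (SE 0.16, adjusted p = 0.000708, edgeR, n = 3 pairs). Gal (ENSMUSG00000024907.7, chr19:3409915-3414544) encodes galanin, a peptide that most locus coeruleus neurons release beside noradrenaline. It was at 20.4, 24.9 and 25.1 CPM in the pre-IP and at 37.3, 45.1 and 49.0 CPM in the IP. The fractions did not overlap, and the log2 fold change was 0.90 (SE 0.16, adjusted p = 0.000362, edgeR). Th and Gal were the members that passed in the unpaired fit as well, with adjusted p = 0.0156 and 0.0162.

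Dbh (ENSMUSG00000000889.8, chr2:27165233-27183200), the gene of dopamine beta-hydroxylase, is the more specific marker, since dopamine neurons lack it. It stood at 11.5, 8.47 and 28.0 CPM in the pre-IP and at 36.2, 28.8 and 56.9 CPM in the IP of H, I and K. Animal K was the highest in both fractions, and the lowest IP library lay just above the highest pre-IP library. The rise within animals was 1.48 on the log2 scale (SE 0.18, adjusted p = 5.26e-06, edgeR). Slc6a2 (ENSMUSG00000055368.14, chr8:92960079-93001667), the noradrenaline transporter and the gene to which the tagged L10a is tied, followed the same order over animals. It was at 5.73, 4.87 and 17.04 CPM in the pre-IP and at 23.2, 15.8 and 33.3 CPM in the IP, so that the pre-IP of K exceeded the IP of I. Its log2 fold change of 1.55 (SE 0.20, adjusted p = 1.08e-05, edgeR) was the largest of the list. Neither gene passed without the block, with adjusted p = 0.0677 for Dbh and 0.0809 for Slc6a2.

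Rises were also called for Slc18a2, Maoa and Tfap2b. Without the block, their adjusted p was 0.144, 0.0918 and 0.309. Slc18a2, the vesicular monoamine transporter shared by all monoamine neurons, was at 20.9, 33.9 and 29.8 CPM in the pre-IP and at 41.4, 32.2 and 56.8 CPM in the IP, with no rise in animal I (log2 fold change 0.62, adjusted p = 0.0266, edgeR). Maoa, which breaks monoamines down, was at 42.0, 41.7 and 42.8 CPM in the pre-IP and at 53.7, 55.5 and 64.4 CPM in the IP, a log2 fold change of 0.45 (SE 0.15, adjusted p = 0.0476, edgeR). The transcription factor Tfap2b (log2 fold change 0.70, adjusted p = 0.0268, edgeR) overlapped between fractions. Leaving out an animal ended the call of Slc18a2 (H or K), Tfap2b (I or K) and Maoa (any of the 3). Among the 12, 4 did not pass. They were Ddc, the aromatic amino acid decarboxylase (0.29, adjusted p = 0.235), Gch1, which makes the cofactor of tyrosine hydroxylase (0.26, adjusted p = 0.328), the low-count factor Phox2a (1.09, adjusted p = 0.145) and Cyb561.

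Cyb561, the electron-carrying protein of secretory vesicles, was abundant and level. It was at 178, 170.3 and 208 CPM in the pre-IP and at 189.9, 178 and 186 CPM in the IP, with an edgeR adjusted p of 0.995. With any single animal left out, 5 of the 12 genes were called, and Th, Dbh, Slc6a2 and Gal were among them each time. With the spread estimated over all 14 libraries, 0 of the 12 were called, with a smallest adjusted p of 0.158.

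**Figure D1:**
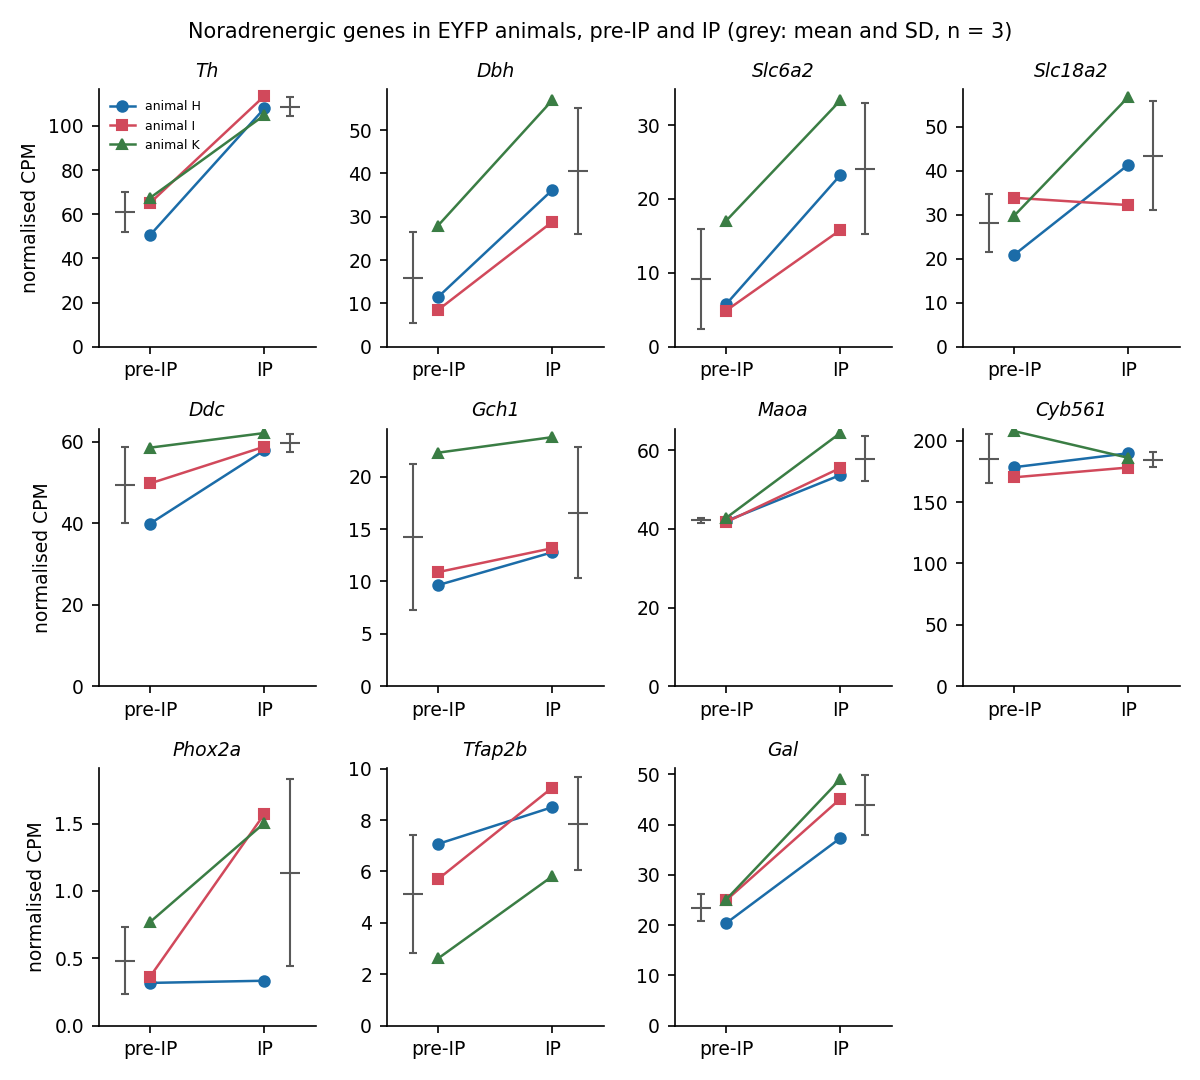
Level of 11 noradrenergic genes (CPM after TMM scaling, linear axes starting at 0) in the pre-IP and IP of EYFP animals H, I and K, joined by animal, with the mean and SD of each fraction (n = 3) in grey. The lines rise in every animal for Th, Gal, Dbh and Slc6a2, animal K starts highest for Dbh and Slc6a2, and Cyb561 stays level.

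Calls among markers of other neurons are to be read beside the 8.89% of all genes that rose and the 8% that fell. Among serotonergic genes, 1 of 10 rose and 1 fell. Tph2, the serotonin-synthesising hydroxylase, was at 19.2, 21.9 and 65.6 CPM in the pre-IP and 36.1, 33.1 and 91.1 CPM in the IP (log2 fold change 0.66, SE 0.16, adjusted p = 0.00609, edgeR), with overlapping fractions and an adjusted p of 0.513 without the block. Htr1a, the serotonin 1A receptor, fell from 26.1, 21.8 and 29.6 CPM to 9.97, 11.3 and 18.7 CPM without overlap (log2 fold change −0.997, SE 0.18, adjusted p = 0.00041, edgeR). Among 8 dopaminergic genes 0 rose and 0 fell, with a median log2 fold change of −0.07.

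Genes of glutamate transmission moved in opposite directions. Of 9 glutamatergic genes, Slc17a6, the vesicular glutamate transporter of brainstem neurons, rose by a log2 fold change of 0.69, and Slc17a7, the transporter typical of cortex and cerebellum, fell by 0.58 on that scale. Without animal I, their adjusted p by edgeR was 0.0543 and 0.293. Of 10 GABA and glycine genes, Gad2, which makes GABA, rose by 0.55, and its call was lost without H, without I and without the block. Of 10 cholinergic and motor genes, 3 rose and 0 fell, with 1 higher without H, 2 without I or without K and 0 without the block. Of 20 neuropeptide genes 1 rose, and 0 with any single animal left out. Yet 19 of the 20 had a positive log2 fold change, with a median of 0.29 (0.41 in H, 0.11 in I and 0.35 in K).

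Lists of glial markers held both rises and falls. Of 14 astrocyte genes 2 rose and 1 fell, with a median of 0.12, and of 14 oligodendrocyte genes 4 rose and 1 fell, with a median of −0.06, beside 8.89% and 8% of all genes. The rises in the oligodendrocyte list numbered 2 without I, 2 without K and 1 without the block, and those in the astrocyte list 1 without H, 1 without I and 1 without the block. Within the astrocyte list, Slc1a2, the main glutamate transporter of astrocytes, rose from 72.7, 65.9 and 64.7 CPM to 174, 162 and 131 CPM without overlap (log2 fold change 1.19, SE 0.15, adjusted p = 1.53e-05, edgeR). Fgfr3, a growth factor receptor of astrocytes, fell from 154, 130.2 and 187 CPM to 87.4, 64.5 and 99.96 CPM (log2 fold change −0.91, SE 0.15, adjusted p = 0.000235, edgeR).

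The oligodendrocyte list was split as well. Ermn and Aspa, genes of mature oligodendrocytes, rose by log2 fold changes of 0.90 and 0.75, and Myrf, the transcription factor that switches myelin genes on, fell by 0.99 on that scale. The adjusted p of Aspa without the block was 0.0617. Of 12 microglia genes 0 rose and 0 fell, with a median of 0.16. Of 10 choroid plexus genes, 3 rose and 0 fell, beside 8.89% and 8% of all genes. Their median was 1.08 in animal I against 0.07 in H and 0.00 in K. Without animal I, and without the block, 1 of the choroid plexus genes rose, and 2 without H. Ttr, the transthyretin of choroid plexus, was at 792, 769 and 1341 CPM in the pre-IP and at 1044, 1758 and 1584 CPM in the IP of H, I and K, and its call was lost without animal I (adjusted p = 0.41, edgeR).

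The protein-coding genes with the largest rises were led by Esf1 and Smc3. Esf1 (ENSMUSG00000045624.15, chr2:140119883-140170564), a nucleolar factor for ribosomal RNA processing, was at 1.31, 3.13 and 1.77 CPM in the pre-IP of H, I and K and at 9.81, 23.9 and 11.7 CPM in the IP. The log2 fold change was 2.85 (SE 0.20, adjusted p = 2.69e-08, edgeR). Smc3 (ENSMUSG00000024974.10, chr19:53600398-53645833), a core subunit of the cohesin ring, was at 3.83, 7.48 and 4.40 CPM in the pre-IP and at 23.0, 44.3 and 19.6 CPM in the IP, a log2 fold change of 2.43 (SE 0.18, adjusted p = 2.69e-08, edgeR). In both genes the fractions did not overlap and animal I was the highest in each fraction. The next largest rises, between 2.09 and 2.33 on the log2 scale, were those of Smc4 (condensin), Hmgn5 (a nucleosome-binding protein), Hsp90aa1 (a cytosolic chaperone), Nexn (an actin-binding protein), Mphosph8 (a reader of silenced chromatin), Nsrp1 (a splicing regulator), Cfap210, Akap17b, Rif1 (replication timing and DNA repair) and Atrx (a chromatin remodeller). The call of Cfap210 was lost without animal H (adjusted p = 0.062, edgeR).

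These 12 genes shared a feature of their coding sequence. In GENCODE M21 their coding strands held 33.2% to 43.2% adenine (A), with a median of 36.95%, against a median of 25.2% over the 15542 tested protein-coding genes with a coding sequence. When those genes were ordered by A content and divided in 10 bins of nearly equal size, numbered from the least A-rich, all 12 fell in bin 10. The 60-base coding window richest in A is shown for 3 of them, 5′ to 3′ on the coding strand of GRCm38, with runs of at least 4 A in capitals, because these windows show the feature directly. The window of Esf1 (chr2:140168067-140168126, minus strand, within 1 coding exon) holds 38 A, that of Smc3 (chr19:53627891-53627950, plus strand, within 1 coding exon) 35 A, and that of Hmgn5 (chrX:109005684-109005743, minus strand, within 1 coding exon) 35 A.
Esf1: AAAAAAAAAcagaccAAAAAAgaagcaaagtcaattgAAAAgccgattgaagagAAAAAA
Smc3: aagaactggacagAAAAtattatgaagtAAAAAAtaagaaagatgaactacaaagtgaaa
Hmgn5: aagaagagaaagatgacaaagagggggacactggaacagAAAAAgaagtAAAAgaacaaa

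The same window was taken from 2 of the protein-coding genes with the largest falls. That of Ankrd52 holds 22 A and spans an exon junction, and that of Lct (chr1:128300732-128300791, minus strand, within 1 coding exon) holds 26 A. Over all tested genes, the richest window held a median of 30 A in genes that rose, 24 A in genes that fell and 25 A in genes that were not called.
Lct: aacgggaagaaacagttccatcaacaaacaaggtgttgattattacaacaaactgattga
Ankrd52: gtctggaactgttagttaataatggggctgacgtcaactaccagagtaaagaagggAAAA

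The relation with A content ran through the whole table. Across the 15542 genes, Spearman's rho between the A content of the coding sequence and the log2 fold change was 0.37, and it was −0.35 with GC content. It was 0.17 in the pair of animal H, 0.31 in I and 0.46 in K. These are descriptions across genes that share the same 6 libraries. The median A content was 30.5% in the 1558 genes that rose, 23.1% in the 1483 that fell and 25% in the 12501 that were not called. The median GC contents of the same groups were 45.7%, 56.5% and 53.6%.

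In the most A-rich bin (31.3% to 47.1% A), 637 of 1555 genes rose (41.0%) and 10 fell (0.643%). In the least A-rich bin (5.73% to 19.4% A), 29 of 1555 rose (1.86%) and 195 fell (12.5%). The median log2 fold change was 0.49 in the most A-rich bin and −0.14 in the least A-rich. Its direction was shared by the animals, with 0.36, 0.52 and 0.61 in the most A-rich bin and −0.04, −0.18 and −0.23 in the least A-rich bin of H, I and K. In the least A-rich bin, the falls numbered 102 without animal K and 62 without the block, and the rises 16 without H, 44 without K and 6 without the block. In the most A-rich bin, 376 genes rose without the block.

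Libraries of the same fraction also differed along this axis. The log2 ratio of the pre-IP of K to that of I had a rho of −0.30 with A content, and that of the IP of I to that of H 0.30. The whole-library GC percent in the sample sheet was 52.13, 52.14 and 52.58 in the pre-IP of H, I and K and 52.33, 51.56 and 51.68 in the IP. The RNA amounts of the fractions did not overlap, as given above. The part of base composition, RNA amount, RNA integrity or amplification in the fold changes was not tested.

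**Figure D2:**
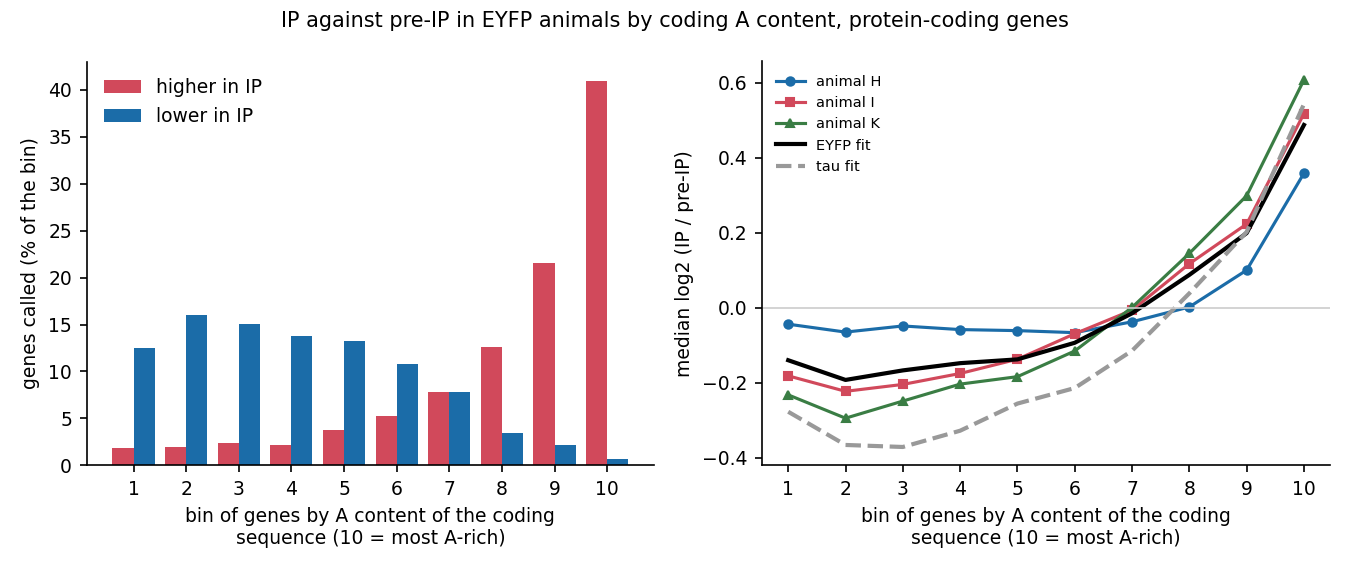
Protein-coding genes in 10 bins by the A content of their coding sequence. Left, the percent of each bin called higher or lower in EYFP IP. Right, the median log2 ratio of IP to pre-IP for each EYFP animal, for the fit of the EYFP animals (black) and for the fit of the tau animals (dashed grey). The share of genes higher in IP climbs to 41.0% in the most A-rich bin, where the median is 0.49.

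The noradrenergic genes did not share this composition. Their A contents ran from 16.01% to 28.7%, with a median of 22.2%, and 11 of the 12 lay in the 5 least A-rich bins. All 12 had a log2 fold change above the median of their own bin, and 8 of them were the genes already called higher. The part of base composition in the values of these genes was not tested. Th, for example, lies in bin 3, whose median was −0.17, and its log2 fold change was 0.84.

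The ATPases of the SMC complexes, which form rings around DNA in cohesin, condensin and the DNA repair complex, rose together. The family was chosen after its values were seen. All 7 tested members rose, by log2 fold changes from 0.998 for Smchd1, a chromosome-silencing relative, to 2.43 for Smc3, and their summed level went from 27.2 to 42.6 CPM in the pre-IP to 98.2 to 166 CPM in the IP. All 7 were also called without each animal in turn and without the block, in fits of the same libraries that the choice came from. The median A content of the 7 coding sequences was 35.4%. All 7 lie in the most A-rich bin, where 41.0% of genes rose, against 8.89% of all genes tested.

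Heat-shock genes were higher in the pull-down. Of 16 tested, 9 rose and 0 fell, beside 8.89% and 8% of all genes, with a median log2 fold change of 0.67. The median A content of the list was 29.4%, which lies in bin 9 of the A content bins, where 21.6% of genes rose and 2.12% fell. The rises numbered 7 without H, 6 without I and 7 without the block. The summed level ran from 2863 to 4224 CPM in the pre-IP and from 5693 to 6438 CPM in the IP. Hsp90aa1 (ENSMUSG00000021270.13, chr12:110690605-110702728), the inducible cytosolic HSP90, was at 153, 235 and 189.9 CPM in the pre-IP and at 881, 1224 and 739.8 CPM in the IP. Every IP library was above every pre-IP library, with a log2 fold change of 2.29 (SE 0.17, adjusted p = 2.69e-08, edgeR). Its constitutive relative Hsp90ab1 rose by 0.66 (adjusted p = 0.009).

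Chaperones of the endoplasmic reticulum and mitochondria were among the members that rose, with log2 fold changes of 1.19 for Hsp90b1, 0.74 for Hspa5, 0.88 for Hspd1 and 0.77 for Hspa9. Some other stress-induced members were not called, unlike the inducible Hsp90aa1 above. The log2 fold change was 0.57 for Hspa1a (adjusted p = 0.215), −0.28 for Dnajb1 (adjusted p = 0.23) and 0.12 for Hsph1. Hspa5 was not called without animal I (adjusted p = 0.0702, edgeR). The coding sequence of Hsp90aa1 is 33.7% A and that of Hsp90ab1 28.4% A. Hsp90aa1 and Hsp90b1 lie in bin 10, where 41.0% of genes rose, and Hspd1 and Hspa5 in bin 9, where 21.6% rose.

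Immunoglobulin segments rose in the pull-down. All segments of immunoglobulin and T cell receptor genes together took 0.0343%, 0.0217% and 0.0367% of the counts in the pre-IP of H, I and K and 0.0746%, 0.0817% and 0.0796% in the IP. Of 41 variable segments tested, 21 rose and 0 fell, beside 8.89% and 8% of all genes, with a median log2 fold change of 1.89. Some segments passed the count filter through their IP libraries. Ighv1-64, for example, had 16, 6 and 4 counts in the pre-IP of H, I and K and 680, 85 and 45 in the IP. A segment so rare in the pre-IP could hardly be called lower, so the number of falls and the median carry little weight. The 4 with the largest rises that the naming rule reached were Ighv1-72, Ighv1-80, Ighv1-82 and Ighv1-64, with log2 fold changes of 4.93, 4.89, 4.30 and 4.19. Ighv1-80 had 0 counts in the pre-IP of H and I, so its fitted fold change depends in part on edgeR's default prior count. Some variable segments of the same family, such as Ighv1, are close in sequence. How reads matching several of them were counted is not given in the sources used here, so their split is uncertain.

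The heavy-chain constant genes moved the same way. Of 7 tested, a list chosen after its values were seen, 5 rose. The same number was called without each animal and without the block, in fits of the same libraries that the choice came from. Igha (ENSMUSG00000095079.6, chr12:113254830-113260236), the constant region of IgA, was at 8.61, 4.20 and 6.17 CPM in the pre-IP and at 91.5, 231 and 27.8 CPM in the IP, a log2 fold change of 3.74 (SE 0.40, adjusted p = 1.82e-06, edgeR). The IP libraries differed widely among themselves, and all lay above the pre-IP. Ighg2b (ENSMUSG00000076613.4, chr12:113302965-113307933) went from 13.1, 7.60 and 12.9 CPM to 73.6, 58.0 and 39.9 CPM, a log2 fold change of 2.34 (SE 0.21, adjusted p = 1.6e-07, edgeR). Ighg3 rose by 3.25, Ighg2c by 2.25 and Ighm, the constant region of IgM, by 1.01 on the log2 scale. With robust hyperparameters in edgeR, the adjusted p was 0.197 for Igha, 0.237 for Ighg2c and 0.188 for Ighv1-80. Ighg2b and Ighg2c are close copies of each other, so the split between them is uncertain too.

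Other genes of antibody-making cells moved less or were near the floor. Igkc, the kappa light chain, rose by 0.49 (adjusted p = 0.035, edgeR, and not called with any single animal left out), Jchain, the joining chain of secreted IgA and IgM, had a log2 fold change of 0.19 (adjusted p = 0.569) and the B cell receptor component Cd79a 0.09. The B cell surface marker Ms4a1 had at most 8 counts in any EYFP library. The list of 10 lymphocyte and plasma cell genes tested includes immunoglobulin genes, and 2 rose and 0 fell, beside 8.89% and 8% of all genes. Those 2 were Igkc and Ighm, the latter counted above as well, and Ighm alone rose with any single animal left out. No other member was called. The summed levels, which include the immunoglobulin genes, ran from 173 to 272 CPM in the pre-IP and from 317 to 519 CPM in the IP. The part of lymphocytes and plasma cells in the rise of the immunoglobulin segments was not tested.

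Noncoding and mitochondrial RNAs were also present in the pull-down. Malat1 (ENSMUSG00000092341.3, chr19:5795690-5802672), an abundant RNA retained in the nucleus, was at 114, 102 and 78.4 CPM in the pre-IP and at 526, 463 and 237 CPM in the IP, without overlap (log2 fold change 2.00, SE 0.17, adjusted p = 1.02e-07, edgeR). Peg13 (ENSMUSG00000106847.1, chr15:72805600-72810324), an imprinted noncoding RNA of the brain, went the other way, from 644, 685 and 759 CPM to 372, 341 and 408 CPM (log2 fold change −0.90, SE 0.15, adjusted p = 0.000296, edgeR). In the list of 16 nuclear-retained RNAs, 4 rose and 3 fell, beside 8.89% and 8% of all genes, with a median of 0.05. Without H 3 rose and 1 fell, without I 2 rose and 3 fell, and without the block 1 rose and 1 fell. Snhg14 and Meg3, from imprinted loci, rose by log2 fold changes of 1.26 and 0.76. Their adjusted p without the block was 0.0652 and 0.288, and Meg3 had 0.151 without animal I.

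Of 11 mitochondrially encoded protein genes, 4 rose and 0 fell, beside 8.89% and 8% of all genes. The same number rose without each animal and without the block, but mt-Nd5, mt-Nd4 and mt-Nd2 were not called with the spread from all 14 libraries. All 4 encode subunits of complex I of the respiratory chain: mt-Nd6 (log2 fold change 1.90), mt-Nd5 (1.28), mt-Nd4 (1.17) and mt-Nd2 (1.06). The median of the list was 1.05 in H, 0.23 in I and 0.77 in K. mt-Nd6 lies on the opposite strand to its neighbours, and the library kit does not mark strand, so its reads cannot be told apart from antisense reads of that region.

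**Figure D3:**
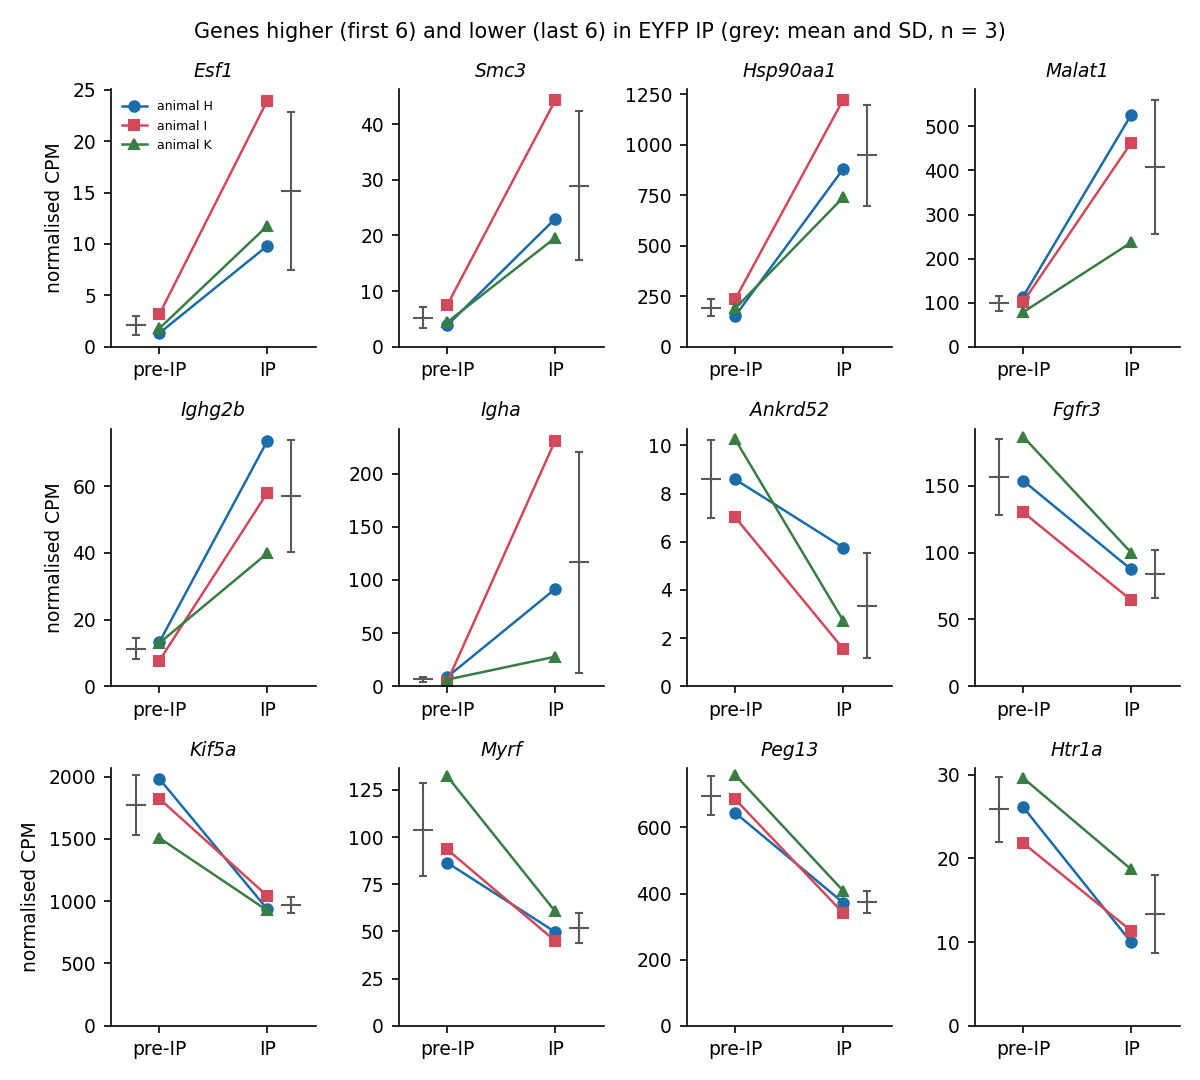
Level (CPM after TMM scaling, linear axes starting at 0) of 6 genes higher and 6 genes lower in the IP of EYFP animals, joined by animal, with the mean and SD of each fraction (n = 3) in grey. The fractions do not overlap in any of the 12 genes, and the IP levels of Igha spread from 27.8 to 231 CPM.

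Genes of the translation machinery shifted upward by small amounts. All 79 cytosolic ribosomal protein genes tested had a positive log2 fold change, with a median of 0.40. Calls of a rise numbered 23 at an adjusted p under 0.05, beside 8.89% of all genes. The largest of these was that of Rpl5, a large-subunit protein that binds 5S ribosomal RNA, at 85.0, 105 and 98.5 CPM in the pre-IP and 141, 209 and 154 CPM in the IP (log2 fold change 0.79, SE 0.15, adjusted p = 0.00107, edgeR). The count depended on every animal, with 8, 14 and 6 calls without H, I and K and 1 without the block. Rpl10a, the protein that carries the tag, was at 82.3, 99.2 and 79.5 CPM in the pre-IP and at 130.0, 98.7 and 92.8 CPM in the IP (log2 fold change 0.29, SE 0.16, adjusted p = 0.24, edgeR). Its reads from the normal gene and from the transgene cannot be told apart.

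Of 37 translation factors 10 rose and 0 fell, with 6 higher without animal I and 6 without the block, and 1 lower without H. The share over all genes was 8.89% higher and 8% lower. The median A content of the translation factors was 27.6%, which lies in bin 7, where 7.78% of genes rose. Eif5b and Eif3a, described next, lie in bin 10, where 41.0% rose. Eif5b, which joins the ribosomal subunits at the start codon, went from 6.37, 9.60 and 7.69 CPM to 21.3, 47.3 and 25.8 CPM (log2 fold change 1.93, SE 0.18, adjusted p = 3.07e-07, edgeR), and Eif3a, a scaffold of initiation factor eIF3, rose by 1.58. Of 76 nuclear genes of oxidative phosphorylation 74 had a positive log2 fold change, with a median of 0.31, and 9 rose. That count was 2, 2 and 6 without H, I and K and 1 without the block. Of 25 splicing factors 10 rose and 0 fell, with 13 higher without H, 7 without I and 7 without the block. The largest rise was that of Luc7l3, a component of the U1 complex, from 13.1, 17.2 and 11.7 CPM to 43.4, 60.6 and 35.9 CPM. Luc7l3 lies in bin 10 as well. The median A content of the splicing factors was 29.1%, which lies in bin 8, where 12.6% of genes rose.

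Of 26 neurotransmitter receptor subunits 13 rose and 1 fell, with a median of 0.49, beside 8.89% and 8% of all genes, and 7 rose without the block. Among them were the NMDA receptor subunits Grin2a (log2 fold change 1.05) and Grin2b (1.14) and the GABA-A receptor subunit Gabra2 (1.06), and the member that fell was Grin2c (−0.80). Of 29 voltage-gated channel genes 12 rose and 2 fell. Scn1a, a sodium channel of fast-firing neurons, rose by 1.005, and the potassium channels Kcnh7 and Kcnq3 rose by 1.42 and 1.06 while Kcnh1 fell by 0.48 on the log2 scale. Without H and without I 7 channel genes rose and 1 fell, and without K 13 rose and 0 fell. Without the block 3 channel genes rose and 0 fell, and Grin2b and Kcnq3 had an adjusted p of 0.0742 and 0.0585.

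Of 24 synaptic vesicle genes 4 rose and 3 fell, beside 8.89% and 8% of all genes, with a median of 0.02. Pclo, a giant scaffold of the active zone, rose from 13.7, 13.2 and 7.499 CPM to 29.1, 38.4 and 21.8 CPM (log2 fold change 1.39, SE 0.17, adjusted p = 7.55e-06, edgeR). Vamp1 and Cplx1, which act in vesicle fusion, fell by 0.46 each on the log2 scale. In this list, 3 genes fell without H, and 1 without I, without K or without the block, while 2 rose without I. Of 14 pan-neuronal genes 5 rose and 0 fell, led by Nefm, a neurofilament subunit, which went from 167, 202 and 372 CPM to 459, 462 and 548 CPM. Without H, without I and without the block, 2 pan-neuronal genes were called higher, and 3 without K. Mapt, the mouse tau gene, was at 256, 237 and 327 CPM in the pre-IP and at 369, 359.6 and 345 CPM in the IP, and did not pass (log2 fold change 0.40, SE 0.16, adjusted p = 0.0838, edgeR).

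**Figure D4:**
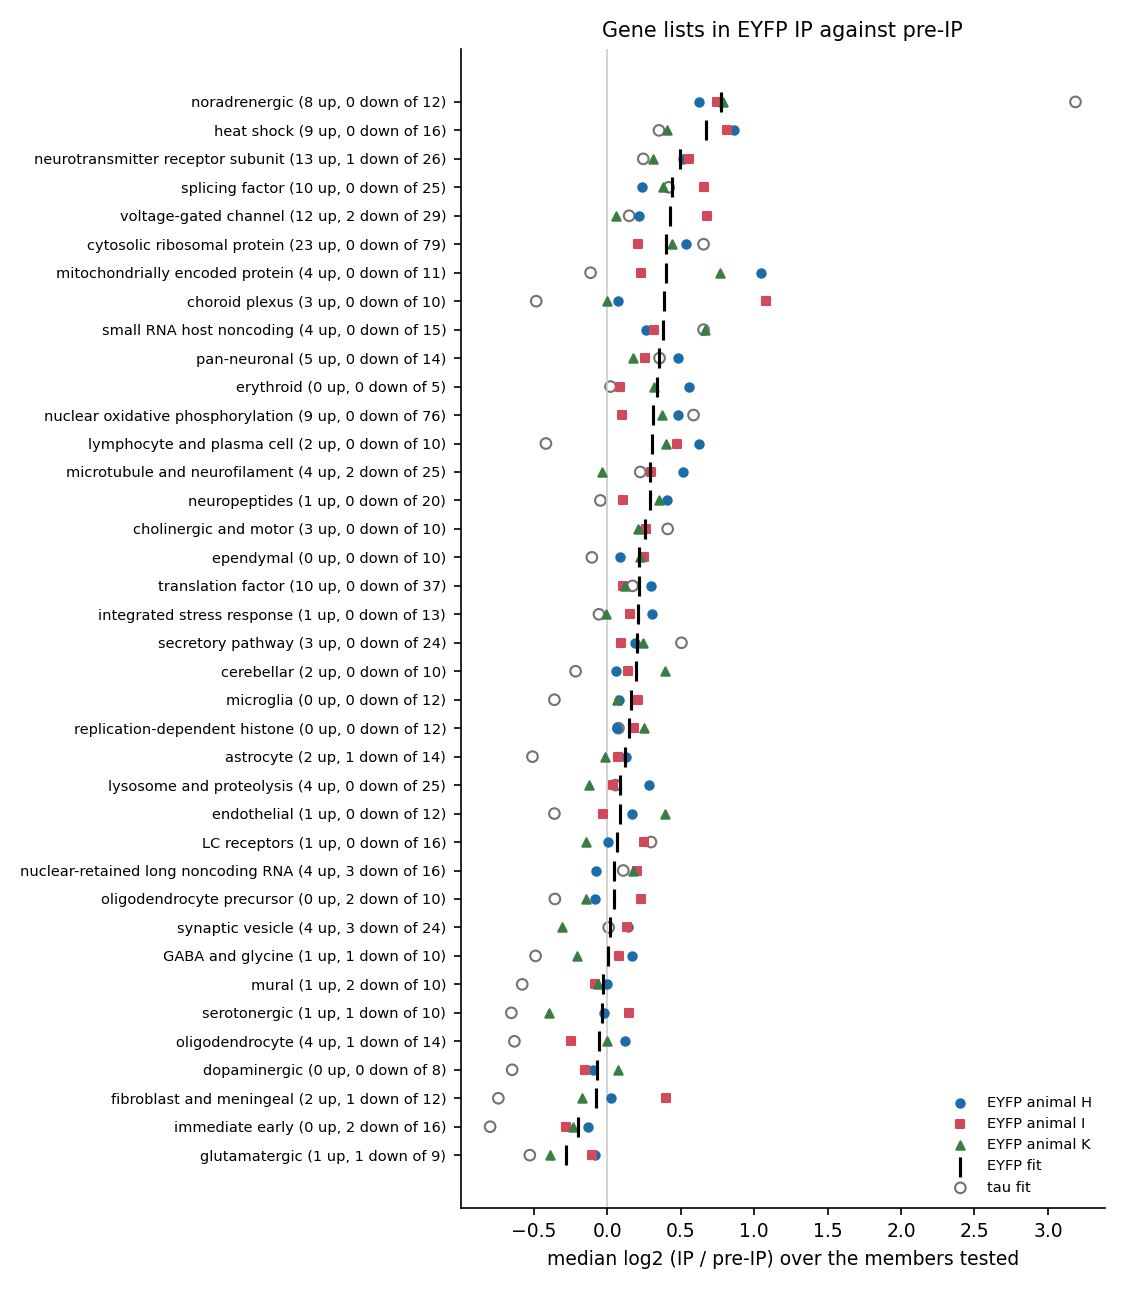
Median log2 ratio of IP to pre-IP over the tested members of 38 gene lists, for each EYFP animal, the fit of the EYFP animals (black bar) and the fit of the tau animals (open circle), with the number of members that rose and fell in EYFP animals. The noradrenergic list has the highest EYFP median (0.77), followed by the heat-shock list (0.67), and its tau median of 3.19 lies far to the right.

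The largest falls were smaller than the largest rises. The 12 protein-coding genes with the largest falls had log2 fold changes between −1.35 and −1.54, and 11 of them lay in the 5 least A-rich bins. Ankrd52, a regulatory subunit of protein phosphatase 6, was at 8.59, 7.01 and 10.2 CPM in the pre-IP and at 5.76, 1.55 and 2.72 CPM in the IP (log2 fold change −1.53, SE 0.26, adjusted p = 0.000298, edgeR). The fractions did not overlap, although the highest IP value was close to the lowest pre-IP value. Without the block, its adjusted p was 0.0646.

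Another 10 of the 12 were Foxm1 (a cell-cycle transcription factor), Lct (lactase), Scnn1a (a sodium channel subunit of epithelia), Syt15, Sp7 (an osteoblast transcription factor), Myo18b (a muscle myosin), Sned1, Erbb2 (a growth factor receptor), Crb1 (a polarity protein of retina) and Tmem220. Their mean pre-IP levels ran from 1.49 CPM for Crb1 to 4.95 CPM for Sned1. Foxm1 had 1.32, 0.143 and 1.52 CPM in the IP of H, I and K, and its call was lost without animal I. The calls of Lct, Scnn1a, Syt15, Crb1 and Tmem220 were lost without H and without I, and that of Erbb2 without K. Without the block, Sp7 alone of these 10 was called.

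Among abundant genes, the motor protein gene Kif5a (ENSMUSG00000074657.5, chr10:127225696-127263348) gave a clear fall. This kinesin heavy chain, which carries cargo along axons, was at 1984, 1824 and 1509 CPM in the pre-IP and at 937, 1043 and 926 CPM in the IP. All IP libraries lay well below all pre-IP libraries (log2 fold change −0.86, SE 0.16, adjusted p = 0.000608, edgeR). Of 25 microtubule and neurofilament genes, 4 rose, such as Map1b by 0.78, and Kif5a and Map4 fell, Map4 with an adjusted p of 0.0715 without animal I. Without H, without I and without the block, 2 genes of this list rose. Of 16 immediate early genes, which neurons switch on with activity, 0 rose and 2 fell, beside 8.89% and 8% of all genes. Their median was −0.20. Egr1 fell from 73.6, 83.7 and 78.4 CPM to 54.2, 37.6 and 49.7 CPM (log2 fold change −0.75, SE 0.17, adjusted p = 0.00319, edgeR), and Arc fell by 0.48. Without animal I, their adjusted p was 0.09 and 0.094, and Arc was not called without H, without K or without the block either.

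The same contrast in the tau animals, from other mice, was set beside these values. There 2030 of 18949 genes were higher (10.7%) and 2357 lower (12.4%). Of the genes tested in both, 859 were higher in both, which is 51.2% of the EYFP and 42.7% of the tau rises. In the other direction 1090 were lower in both, 71.5% of the EYFP and 46.3% of the tau falls. No gene rose in EYFP and fell in tau animals, and 2 did the reverse. Across the 18528 genes, the 2 sets of log2 fold changes had a Pearson's r of 0.56 and a Spearman's rho of 0.61, as a description across genes.

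Several of the other genes described above had the same direction in both. In the tau animals the log2 fold change was 2.08 for Hsp90aa1, 1.82 for Malat1, 1.64 for Smc3, 1.77 for Esf1, 2.82 for Ighg2b, −0.99 for Peg13 and −1.47 for Kif5a. Other genes described above did not share the direction. The tau log2 fold change was −0.07 for Tph2, 0.56 for Myo18b and 0.58 for Crb1, and none of them was called there. Of the mitochondrially encoded protein genes, 1 rose in the tau animals, with a list median of −0.11 against 0.40 in the EYFP animals. Spearman's rho with A content was 0.35 in the tau animals. The noradrenergic genes had larger values there: their median was 3.19 in the tau animals, where all 12 rose, against 0.77. The log2 fold change in the tau animals was 3.15 for Th, 4.23 for Gal, 5.80 for Dbh and 5.43 for Slc6a2.

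Whether the pull-down change differed between EYFP and tau animals was tested in an interaction model over 20495 genes. By edgeR's quasi-likelihood test 0 genes passed (0%), 1744 had an unadjusted p under 0.05, and the smallest adjusted p was 0.333. DESeq2 called 78 genes and limma voom 31. Gal had an interaction of 3.36 on the log2 scale (SE 0.52), Dbh 4.35 (SE 0.80) and Th 2.34 (SE 0.45). By edgeR, the adjusted p was 0.381 for all 3. Of the 12 noradrenergic genes, DESeq2 and voom each called 8, and edgeR called 11 with no filter on low counts. Without tau animal M, whose median enrichment was the smallest of the tau animals, at 1.65, edgeR called 10, and without tau animal B 1. It called 0 with any other single animal left out, without the block, with the size factors of DESeq2 and among genes with a mean of at least 50 counts.

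Outside that list, the smallest interaction p-value was that of Shisal2b, whose log2 fold change was 0.76 in EYFP and 4.79 in tau animals (interaction 4.06, SE 0.57, adjusted p = 0.333, edgeR). Next came Calcr, the calcitonin receptor, with an interaction of 2.88, and Eya2, a transcription cofactor, with 2.48. In the other direction Plxnb3, a plexin of oligodendrocytes, had −0.88 in EYFP and −1.84 in tau animals (interaction −0.94, SE 0.21, adjusted p = 0.527, edgeR). Glial lists had lower medians in the tau animals, with −0.51 for astrocytes and −0.63 for oligodendrocytes, against 0.12 and −0.06 in the EYFP animals. These differences between list medians were not tested.

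**Figure D5:**
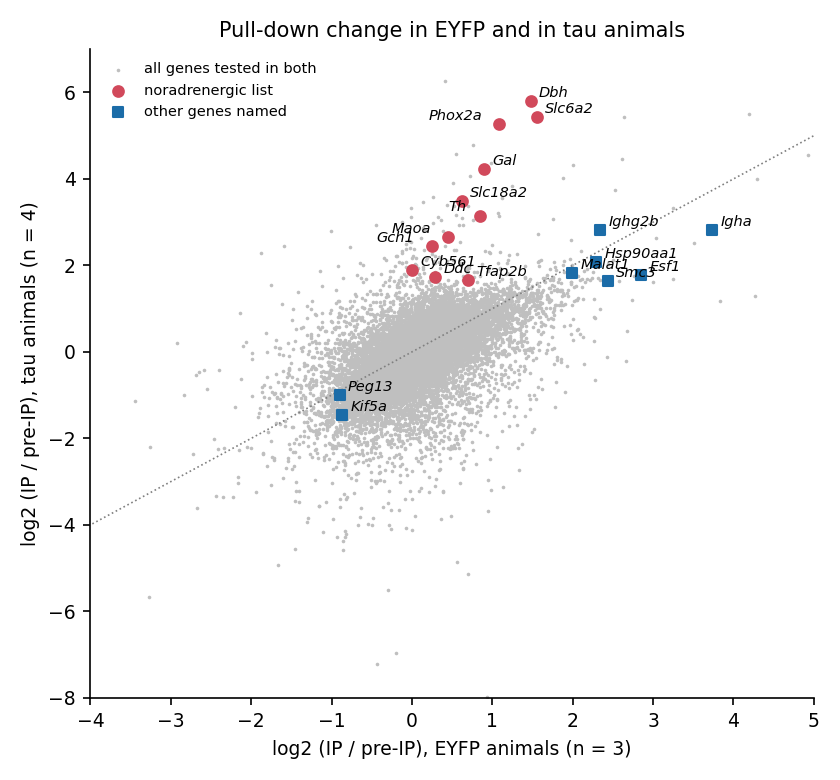
Log2 ratio of IP to pre-IP of each gene in EYFP animals (horizontal, n = 3) and in tau animals (vertical, n = 4), with the line of equal change dotted. The 11 noradrenergic genes shown (red) lie above the line, and Esf1, Smc3, Hsp90aa1, Malat1, Peg13 and Kif5a (blue) have the same sign in both, with 2.85 for Esf1 in EYFP against 1.77 in tau animals.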

How the data were processed

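The series holds 14 RNA sequencing libraries of mouse brainstem, of which the 6 from EYFP animals are the subject here. Per the labels' protocols, polyadenylated RNA was made into libraries with the SMART-Seq v4 and Nextera XT kits. The submitters' processing notes name FastQC, Trim Galore, STAR and featureCounts and the build GRCm38 (mm10). Whether counting used strand, and how it treated reads that match several genes, is not given in the sources used here. The deposited table holds raw read counts per gene. Its header has 2 stray empty cells, so columns were read by position. A deposited sheet lists an integrity score for the RNA, the RNA concentration and the GC percent of each library, per the file headers.

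Counts were tested with edgeR 4.0.16 (R 4.3.3): filterByExpr, TMM scaling within the EYFP or the tau libraries, quasi-likelihood F test and Benjamini-Hochberg adjustment at 0.05. The fitted fold changes used edgeR's default prior count, and the log2 ratios of single animals a prior count of 2. The animal letter entered as a block. It comes from the titles, and the deviations of an animal's libraries from the fraction means correlated in every EYFP animal (0.24 in H, 0.20 in I and 0.39 in K). CPM are counts per 1000000 after TMM scaling. Coding sequences, positions and base composition came from GENCODE M21 (GRCm38).

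Named genes had an adjusted p under 0.05, a mean of at least 1 CPM, the same sign in all 3 pairs and no overlap between fractions. The 12 protein-coding and 5 other genes with the largest changes in each direction qualified, as did the noradrenergic list, Mapt, Rpl10a and, for every list, up to 4 members with the smallest p. For the interaction these were the 6 smallest p-values in each direction. SMC and immunoglobulin constant genes, further members of lists and symbol families were named after their values were seen. The genes, the 38 lists and the tests were chosen with earlier results of these data known.

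Replicate libraries were checked and none was a copy of another. EYFP counts over 18587 genes were simulated from edgeR's own fitted means and spread, with 200 changed genes and no trend with A content. There edgeR recovered 64.6% of genes changed by 1 and 88.4% of those changed by 2 on the log2 scale, and 0.67% of its calls were false. The data themselves gave 3227 calls and a trend with A content, so these rates need not hold for them. For the interaction over 20074 genes it recovered 17.2% and 61.6%, with 4.88% of calls false. Other settings were DESeq2 1.42.0 (test and size factors), limma 3.58.1 voom with quality weights, library totals without scaling, all genes unfiltered, genes averaging at least 50 counts, robust hyperparameters, no block, the spread of all 14 libraries, and leaving out each animal. Some genes that the rule names are not reported here.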

Additional observations from a re-analysis of the deposited data

Results flagged for a closer look

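Reads of the human tau construct, which was not infused in EYFP animals, appeared in 5 of the 6 EYFP libraries above the floor of 3 counts. The pre-IP of animal K held 408 counts and its IP 398 counts. The IP of I held 18 counts, and the pre-IP and IP of H held 8 and 16 counts. The pre-IP of I held 2 counts, below the floor. Animal K also had the highest Dbh and Slc6a2 levels in both fractions, and Th, Dbh, Slc6a2 and Gal were called without K. The source of these reads was not tested.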

How the results depend on the processing

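The count of genes changed in EYFP IP against pre-IP (3227) fell to 1218 with no replicate block and to 1360 with the spread from all 14 libraries. It ran from 2126 to 2419 when an animal was left out. It was between 2989 and 3612 with DESeq2, its size factors, library totals, voom, robust hyperparameters, a mean of at least 50 counts and no filter. The count for the interaction (0) was 78 with DESeq2, 31 with limma voom, 300 with no filter on low counts, and 0 to 68 when an animal was left out. The tau count (4387) ran from 1425 to 5013 when an animal was left out. No named gene called in EYFP IP against pre-IP changed sign under another setting. Some uncalled genes did, such as Cyb561, whose log2 fold change was 0.08 without animal K. Of the values for named genes under other settings, 2076 kept their side of the threshold, 258 lost it and 3 gained it. The losses were most frequent without the block (68) and with the spread from all 14 libraries (66). The cause of these shifts was not tested. Depth limited genes near the floor, such as Ms4a1. With 3 animals, 64.6% of changes of 1 on the log2 scale were recovered in simulated counts, which had far fewer changed genes than were called here.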

Other observations

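Families of protein-coding genes that share a symbol stem were counted after the values were seen, with at least 15 tested members in each of 98 families. Their counts are to be read beside the 8.89% of all genes that rose and the 8% that fell. The zinc finger genes named Zfp, mostly DNA-binding repressors, formed the family with the most tested members. Of 374 tested, 109 rose and 34 fell in EYFP IP, with a median log2 fold change of 0.11 and a median coding A content of 30.4%. Of 309 solute carriers (Slc), 18 rose and 47 fell, with a median of −0.25 and a median A content of 21.02%. Of 58 orphan and other G protein-coupled receptors named Gpr, 2 rose and 14 fell, with a median of −0.28 and a median A content of 20.2%. Of 50 leucine-rich repeat genes named Lrrc, 0 rose and 10 fell by edgeR.

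Of 809 pseudogenes tested, 27 rose and 4 fell, fewer than the 8.89% and 8% of all genes would give, with a median of 0.25. Of 13 mitochondrial transfer RNA genes, 5 rose and 0 fell, with medians of 1.98 in animal H, 0.24 in I and 0.54 in K. Of 12 genes of fibroblasts and meninges, 2 rose and 1 fell, with a median log2 fold change of −0.07. Ogn and Dcn, small proteoglycans, rose by log2 fold changes of 1.79 and 0.92. Tnn (tenascin N) was at 0.861, 0.748 and 1.63 CPM in the pre-IP of H, I and K and at 0.0303, 0 and 0.601 CPM in the IP, and its call was lost without animal H, without the block and with DESeq2.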
